A study of Homo sapiens with 6 samples.

Results

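Axon guidance ligands and receptors are the secreted and membrane proteins by which growing nerve fibres, and many cells outside the nervous system, read the position of their neighbours. They were chosen by gene name from the deposited expression table: semaphorins of classes 3 to 7, plexins A to D, neuropilins, Slits, Robos, the EPHA and EPHB receptors, ephrins A and B, numbered netrins, and genes named UNC5A to UNC5D. Of the 62703 genes in the table, 69 had such a name, after 11 names with a hyphen, such as those of antisense transcripts, were left out. They comprised 35 ligands (20 semaphorins, 3 Slits, 8 ephrins and 4 netrins) and 34 receptors (9 plexins, 2 neuropilins, 4 Robos, 14 Eph receptors and 5 genes with UNC5 names). UNC5CL matched the naming rule only as a UNC5-like gene and is not itself an established netrin receptor.

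As background, each ligand family has its own receptors, and most of the pairs act at contacts or over short distances to steer a cell through small GTPases and the actin cytoskeleton. Semaphorins bind plexins, with neuropilins as co-receptors for most of class 3; Slits bind Robos; ephrins, which stay on the membrane, bind Eph receptor tyrosine kinases; and netrins bind DCC, neogenin and the UNC5 receptors. In pancreatic cancer these families are studied for tumour cell migration, vessel growth and the contact between tumour cells and nerves.

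The samples were PANC-1 cells, an established line from a human pancreatic ductal carcinoma. DKK1-SE is a super-enhancer, a dense cluster of enhancers, near the Wnt antagonist gene DKK1 on chromosome 10, and the comparison asks which genes differ once its component enhancer e1 is removed from both alleles by CRISPR/Cas9. RNA-seq was available for 3 replicates of unedited wild-type cells (DKK1-SE+/+) and 3 replicates of cells with the homozygous e1 deletion (DKK1-SE-/-). The study names the same medium for all PANC-1 cells. Edited cells went through puromycin selection and limiting dilution, which the study does not describe for the unedited ones. The edited cells are described in the study as 1 homozygous subclone, so the genotype and the clone cannot be told apart. The replicates are labelled as biological, and the study describes its replicates in general as independent; the p-values measure the spread between these samples.

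Total expected counts per sample were 21822314, 16475810 and 18803154 in DKK1-SE+/+ replicates 1 to 3 and 17359835, 20098086 and 17804764 in DKK1-SE-/- replicates 1 to 3. Pearson's r of log2(TPM + 1) across genes, TPM being the deposited length-scaled level of a gene as its share of all transcripts in a sample, was 0.983 to 0.990 between replicates of a genotype and 0.973 to 0.980 between genotypes. DKK1 itself was at 229, 245.8 and 199 TPM in the DKK1-SE+/+ samples and at 66.8, 79.8 and 82.7 TPM in the DKK1-SE-/- samples. Every edited sample was below every unedited one (log2 fold change -1.45 ± 0.11, edgeR adjusted p = 6.16e-06; two-sided exact permutation p of TPM = 0.1, the smallest that 3 against 3 samples allow).

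The labelled tissue, pancreas, was checked against markers. The epithelial keratins KRT8 (lowest sample 936 TPM) and KRT18 (lowest 842 TPM) were abundant in all 6 samples, as was vimentin (VIM, lowest 2534 TPM). The 7 acinar and endocrine pancreas genes examined were all under 1 TPM in every sample, so the data carry an epithelial line with mesenchymal filaments and not the markers of acinar or endocrine pancreas. KRT19 was at 48.2, 53.8 and 59.8 TPM in the DKK1-SE+/+ samples and 198, 172 and 146 TPM in the DKK1-SE-/- samples. The mesenchymal transcription factor ZEB1 was at 9.17, 9.57 and 9.81 TPM and 2.75, 4.01 and 4.55 TPM in the same order. Both genes separated the genotypes completely, KRT19 upward and ZEB1 downward (log2 fold change 1.83 ± 0.16, adjusted p = 1.4e-05, and log2 fold change -1.27 ± 0.16, adjusted p = 0.000204). The epithelial genes did not all move with KRT19: EPCAM and SOX9 were called lower, also without overlap in TPM (log2 fold change -0.67 ± 0.23, adjusted p = 0.0395, and log2 fold change -0.39 ± 0.12, adjusted p = 0.0219), although both calls were lost with the replicate number as a block (adjusted p = 0.0756 and 0.0652).

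Throughout, the log2 fold change is DKK1-SE-/- over DKK1-SE+/+ with its standard error (SE), from edgeR's quasi-likelihood F test on rounded expected counts with n = 3 per genotype, and the adjusted p is Benjamini-Hochberg adjusted over the 15179 genes that passed the count filter. Of the 69 genes, 51 passed the filter. At an adjusted p under 0.05, 32 of these 51 were called, 62.7%, beside 39.3% of all tested genes. There were 15 higher (background 19.8%) and 17 lower (background 19.5%) in DKK1-SE-/- cells. At the limits for a differentially expressed gene (DEG) taken here, an unadjusted p under 0.05 with a log2 fold change of 1.2 or more in either direction, 11 genes were called, 21.6% beside a background of 8.66%. The 7 higher DEGs (background 4.96%) were SEMA3A, PLXND1, PLXNA2, SLIT2, EPHA4, EPHA5 and NTN1, and the 4 lower DEGs (background 3.7%) were SEMA4G, NRP2, EPHB6 and UNC5C. With 1.2 read as a linear fold change, 18 of the 51 were higher (background 24.3%) and 18 lower (background 23.3%).

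SLIT2 and EPHA5 passed the filter through the DKK1-SE-/- samples alone and so had to differ. EPHA4 and NTN1 had only 1 and 2 DKK1-SE+/+ samples over the limit of the filter. They too needed their 3 DKK1-SE-/- samples to pass it, which favours a higher value. The counts above describe the 51 genes and are no evidence about the 69. The median log2 fold change of the 51 was 0.04, beside 0.03 over all tested genes, and it was also 0.04 with SLIT2 and EPHA5 set at the values their counts allow. The median was -0.35 for the 37 genes with a mean of at least 1 TPM and 0.37 for the 14 under 1 TPM. The median absolute log2 fold change of the 51 was 0.70, beside 0.38 over all tested genes. The genes thus moved in both directions, and the families differed in how many of their members moved each way.

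**Figure D1:**
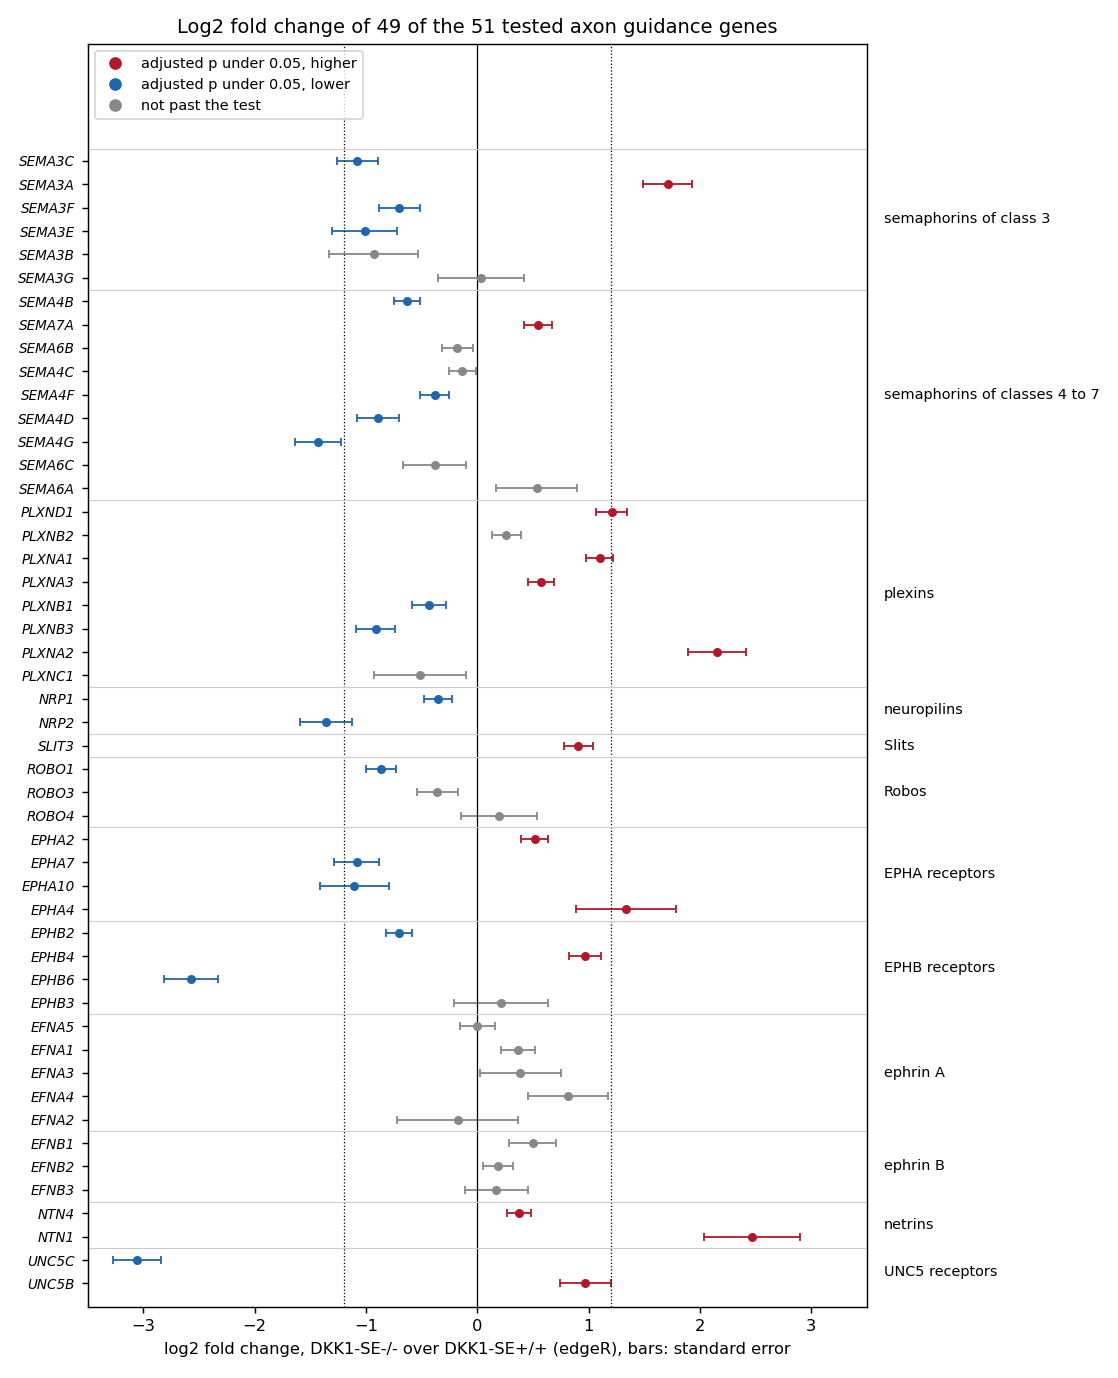
Log2 fold change of DKK1-SE-/- over DKK1-SE+/+ cells (horizontal axis, edgeR) for 49 of the 51 tested axon guidance genes, grouped by family and ordered by mean TPM; points are fitted values, bars the standard error, and dotted lines the limit of 1.2. SLIT2 and EPHA5 are left out because their DKK1-SE+/+ counts were 0 or near 0; all 8 ephrins are grey, that is, not past the test.

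Among the ligands, 13 of 27 tested genes were called (48.1%, beside the 39.3% of all genes), 6 higher and 7 lower, and 5 and 5 without DKK1-SE+/+ replicate 1 or without DKK1-SE-/- replicate 2. Their summed level was lower in edited cells. Summed over the 35 ligands it was 552, 536 and 586 TPM in the DKK1-SE+/+ samples and 399, 385 and 419 TPM in the DKK1-SE-/- samples. Every DKK1-SE-/- sample was below every DKK1-SE+/+ sample. The semaphorins carried this fall: they summed to 464, 452 and 502 TPM and 303, 289 and 307 TPM. Nearly all of it came from SEMA4B (mean 290.6 and 167.5 TPM by genotype) and SEMA3C (85.8 and 38.1 TPM). Of 15 tested semaphorins, 7 were called lower and 2 higher (60.0%, beside 39.3%), and the remaining 6 were not past the test. More semaphorins were called lower than higher in each of the 15 alternative fits. In RNA from many cells, fewer cells that express a gene and less RNA per cell cannot be told apart. With a GC-content offset (described with the base composition of the transcripts) 10 were called lower and 2 higher (backgrounds in that fit 20.9% and 19.8%).

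SEMA4B, a transmembrane semaphorin of class 4, was the most abundant ligand of all. It was at 281, 275 and 316 TPM in the DKK1-SE+/+ samples and 179, 161 and 163 TPM in the DKK1-SE-/- samples. The genotypes did not overlap, and the 3 edited samples were close to one another (log2 fold change -0.63 ± 0.11, adjusted p = 0.0014). Among the other semaphorins of classes 4 to 7 the highest value in any sample was 33.9 TPM (SEMA7A). In DKK1-SE+/+ cells SEMA4B was 10.5 times the level of SEMA6B, the next in order, and SEMA6B and SEMA7A overlapped. In DKK1-SE-/- cells it was 5.19 times SEMA7A, which then stood above SEMA6B in every sample.

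SEMA4G was lower still in relative terms (ENSG00000095539, chr10:100969504-100985871, plus strand, GRCh38). Its level was 1.80, 2.52 and 2.50 TPM in the DKK1-SE+/+ samples and 0.94, 1.56 and 0.72 TPM in the DKK1-SE-/- samples. The highest edited sample, replicate 2, lay just under the lowest unedited one, replicate 1 (log2 fold change -1.43 ± 0.21, adjusted p = 0.000414). SEMA4D, best known as the ligand of plexin B1, and SEMA4F were called lower too (log2 fold change -0.89 ± 0.19, adjusted p = 0.00344, and log2 fold change -0.38 ± 0.13, adjusted p = 0.0391), but for SEMA4F the TPM values of the genotypes overlapped and the call was lost without any of 4 single samples. SEMA4C was not past the test (log2 fold change -0.13 ± 0.12, adjusted p = 0.417). Of 5 tested class 4 semaphorins 4 were thus called lower (background 19.5%), and the fitted value of the remaining one was negative too. SEMA7A, the membrane semaphorin held by a GPI anchor, went the other way, from 23.0 to 27.1 TPM in the DKK1-SE+/+ samples to between 31.4 and 33.9 TPM in the DKK1-SE-/- samples (log2 fold change 0.55 ± 0.12, adjusted p = 0.00548). With the GC-content offset its value was 0.23, and the call was lost with that offset and the replicate block together. SEMA6B, SEMA6C and SEMA6A were not past the test, with log2 fold changes of -0.18, -0.38 and 0.53.

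The secreted class 3 semaphorins changed order among themselves. SEMA3C, the most abundant of them, was at 93.8, 84.5 and 79.3 TPM in the DKK1-SE+/+ samples and 29.0, 37.8 and 47.5 TPM in the DKK1-SE-/- samples. The edited samples differed among themselves by more than the unedited ones, and all 3 were lower (log2 fold change -1.08 ± 0.18, adjusted p = 0.00101). SEMA3A (ENSG00000075213, chr7:83955777-84492724, minus strand), the repulsive cue that acts through neuropilin 1 and class A plexins, was at 2.64, 1.67 and 2.37 TPM in the DKK1-SE+/+ samples and 4.89, 7.65 and 11.8 TPM in the DKK1-SE-/- samples. Every edited sample was higher, replicate 3 the most and replicate 1 the least (log2 fold change 1.71 ± 0.22, adjusted p = 0.000214). SEMA3A was below SEMA3F in every DKK1-SE+/+ sample and above it in every DKK1-SE-/- sample. SEMA3F, a ligand of neuropilin 2, was called lower (log2 fold change -0.70 ± 0.18, adjusted p = 0.0112), as was SEMA3E, a ligand of plexin D1 (log2 fold change -1.01 ± 0.29, adjusted p = 0.0173), although SEMA3E's TPM values overlapped and its call was lost in 6 of the 15 alternative fits, among them those without DKK1-SE+/+ replicate 1 and without DKK1-SE-/- replicate 2. SEMA3B and SEMA3G were not past the test (log2 fold change -0.93 ± 0.40, adjusted p = 0.0865, and log2 fold change 0.04 ± 0.39, adjusted p = 0.952), and SEMA3D was not tested.

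The Slits are large secreted ligands of the Robos. SLIT3 was at 4.40, 4.71 and 5.70 TPM in the DKK1-SE+/+ samples and 8.83, 7.86 and 8.82 TPM in the DKK1-SE-/- samples. All edited samples were higher and the groups were well apart (log2 fold change 0.91 ± 0.13, adjusted p = 0.000375). SLIT2 (ENSG00000145147, chr4:20251905-20620561, plus strand) had 0 counts in all 3 DKK1-SE+/+ samples and 126, 147 and 143 counts in the DKK1-SE-/- samples. In TPM these were 0 in each unedited sample and 1.29, 1.27 and 1.48 in the edited ones, so reads of the gene were found only in the edited samples. Against a floor of 3 counts per DKK1-SE+/+ library, which covers counting error alone, SLIT2 was at least 49.5-fold higher (edgeR adjusted p = 1.74e-06). SLIT1 stayed at or under 0.05 TPM in all samples and was not tested.

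SLIT2 was the one tested member with 0 counts in a whole genotype, so the bases around its start are shown. The RefSeq window (GRCh38.p14) covers 250 bases before to 50 after the start, chr4:20251655-20251954, plus strand, is 0 bases from the start in the gene annotation, and holds 36 CG dinucleotides, in capitals. As many or more were found in 12.7% of the 35116 RefSeq windows of this length.
SLIT2: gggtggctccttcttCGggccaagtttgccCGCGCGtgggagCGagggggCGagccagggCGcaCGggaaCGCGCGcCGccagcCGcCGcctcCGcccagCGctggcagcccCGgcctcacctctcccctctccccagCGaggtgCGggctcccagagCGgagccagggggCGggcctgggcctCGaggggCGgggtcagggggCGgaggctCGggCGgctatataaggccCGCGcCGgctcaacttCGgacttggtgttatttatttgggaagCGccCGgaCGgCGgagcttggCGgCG
DNA methylation of this window was not part of the data used here.

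The netrins divided by abundance. NTN4, a secreted netrin of basement membranes, was at 35.1, 32.9 and 34.1 TPM in the DKK1-SE+/+ samples and 32.5, 38.7 and 47.4 TPM in the DKK1-SE-/- samples. Replicates 2 and 3 of the edited cells were above all unedited samples, while replicate 1 was below all of them (log2 fold change 0.38 ± 0.11, adjusted p = 0.0169). The NTN4 call was lost in 8 of 15 alternative settings, with adjusted p from 0.0059 to 0.337 over all 15. Without DKK1-SE+/+ replicate 1, 2 or 3 or DKK1-SE-/- replicate 2, the log2 fold change hardly moved (0.35, 0.37, 0.37 and 0.37). In these fits the call was lost with fewer samples at a similar value. Blocking on replicate number also lost it at 0.37. The value was smaller with library size alone (0.31) and with limma-trend on TPM (0.19 and 0.20), where the call was lost too. Without DKK1-SE-/- replicate 1 or 3 the call was kept (0.44 and 0.29). NTN1 (ENSG00000065320, chr17:9021510-9244000, plus strand), the classical chemoattractant, was at 0.18, 0.03 and 0.2 TPM in the DKK1-SE+/+ samples and 0.78, 0.73 and 0.77 TPM in the DKK1-SE-/- samples. It was low everywhere, but every edited sample was over every unedited one (log2 fold change 2.47 ± 0.44, adjusted p = 0.0013). NTN3 and NTN5 were not tested.

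None of the 8 ephrins was called by edgeR at an adjusted p under 0.05, beside 39.3% of all tested genes, nor by DESeq2. An unadjusted p under 0.05 was found for 3 of them (EFNA1, EFNA4 and EFNB1). Summed, the ephrins were at 47.9, 46.3 and 43.0 TPM in the DKK1-SE+/+ samples and 51.5, 47.7 and 53.9 TPM in the DKK1-SE-/- samples, and the genotypes overlapped. EFNA5, the most abundant, was at 22.8, 18.7 and 18.5 TPM and 21.0, 16.5 and 26.7 TPM in the same order. Among the edited samples, replicate 2 was below and replicate 3 above all unedited ones, and the fitted difference was far below its error (log2 fold change -1.9e-05 ± 0.16, adjusted p = 1). EFNB1, a transmembrane ephrin, was at 3.33, 3.88 and 5.56 TPM in the DKK1-SE+/+ samples and 5.99, 5.52 and 4.57 TPM in the DKK1-SE-/- samples. Its groups overlapped through DKK1-SE+/+ replicate 3, and the gene was called higher without that sample (log2 fold change 0.73), without DKK1-SE-/- replicate 3 (0.63) and with no count filter (0.48; with all samples and the filter 0.50 ± 0.21, adjusted p = 0.0807). It was not called in the other 12 alternative fits, and the value was 0.17 with the GC-content offset (adjusted p = 0.399) and 0.32 without DKK1-SE+/+ replicate 1 (adjusted p = 0.312). Without DKK1-SE-/- replicate 3, EFNA1 was called higher too. The log2 fold changes of the other ephrins ran from -0.18 (EFNA2) to 0.81 (EFNA4). A p that misses the limit does not show that their levels were equal.

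**Figure D2:**
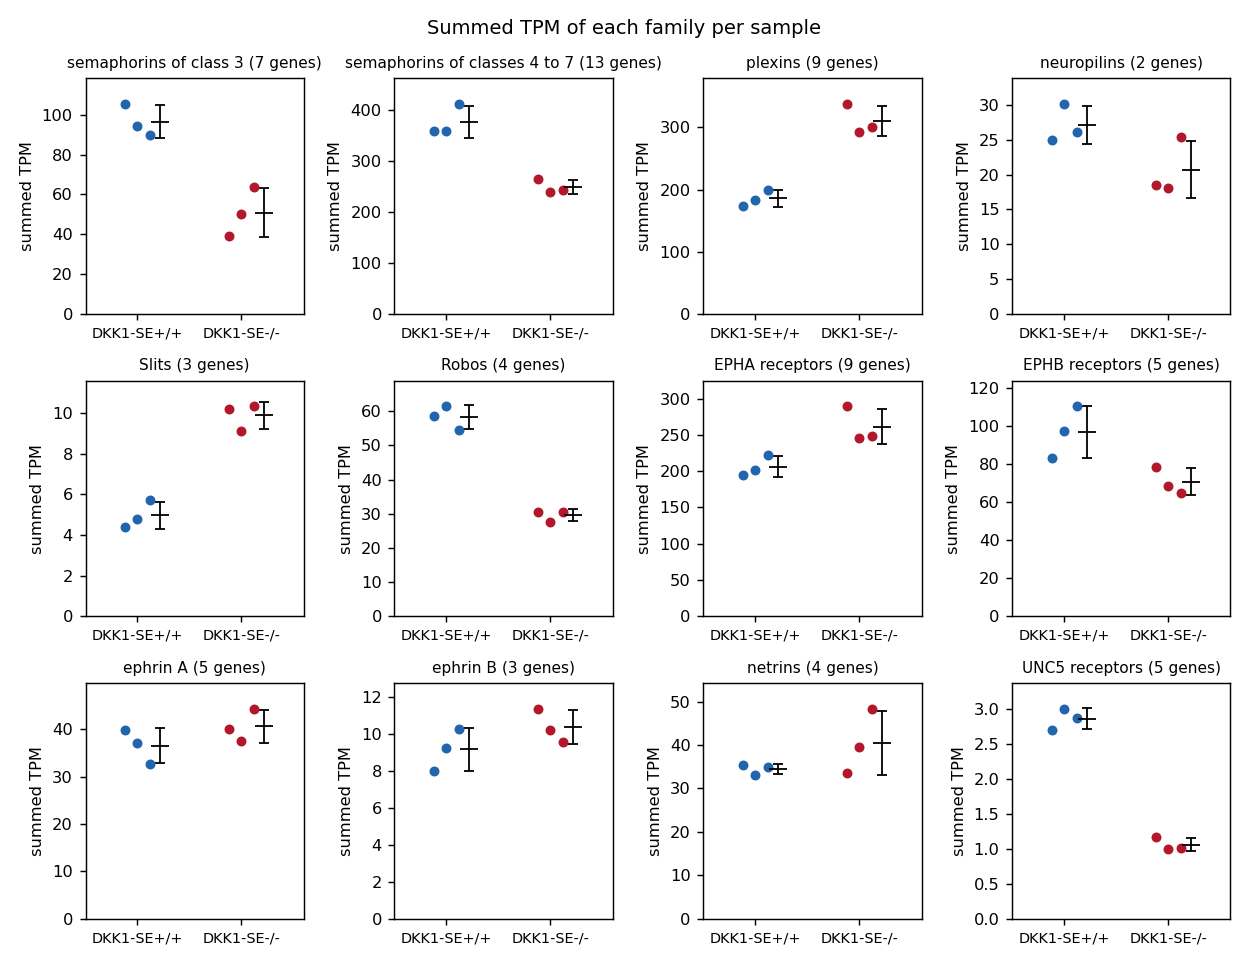
Summed TPM of each family in every sample (vertical axes, linear from 0; DKK1-SE+/+ in blue, DKK1-SE-/- in red, replicates 1 to 3 from left to right); the black mark and bar give the mean and SD over 3 samples. Both semaphorin panels, Robos, EPHB receptors and UNC5 genes lie lower and plexins, Slits and EPHA receptors higher in all DKK1-SE-/- samples, while the ephrin, netrin and neuropilin panels overlap.

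Among the receptors, 19 of 24 tested genes were called (79.2%, beside 39.3%), 9 higher and 10 lower, and their summed level rose from 537, 577 and 617 TPM in the DKK1-SE+/+ samples to 757, 655 and 671 TPM in the DKK1-SE-/- samples. All edited samples were above all unedited ones. The sum over the 69 genes overlapped between the genotypes (1135 ± 59.6 and 1095 ± 57.8 TPM, mean ± SD, n = 3).

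Within the receptors, the sums of Robos, neuropilins, EPHB receptors and UNC5 genes were lower by mean in edited cells. The plexins rose by more than the receptor sum as a whole, mostly through PLXND1. They summed to 173, 184 and 200 TPM in the DKK1-SE+/+ samples and 338, 293 and 301 TPM in the DKK1-SE-/- samples, with 4 genes called higher and 2 lower of 8 tested (75.0%, beside the 39.3% of all genes). PLXND1 (ENSG00000004399, chr3:129555214-129606676, minus strand), the receptor of SEMA3E and a regulator of vessel patterning, was at 81.8, 91.5 and 89.9 TPM in the DKK1-SE+/+ samples and 199, 165 and 177 TPM in the DKK1-SE-/- samples. All edited samples stood far above the unedited ones (log2 fold change 1.21 ± 0.14, adjusted p = 9.34e-05). PLXNA1, a signalling partner of neuropilin 1, was at 18.3, 19.0 and 22.4 TPM and 43.8, 38.6 and 38.7 TPM in the same order. It separated the groups in the same way (log2 fold change 1.10 ± 0.12, adjusted p = 7.03e-05). At the DEG limit of 1.2, PLXND1 lay just inside and PLXNA1 just outside, which does not set the pair apart.

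PLXNA2 (ENSG00000076356, chr1:208022242-208244384, minus strand), another class A plexin, was at 0.16, 0.29 and 0.14 TPM in the DKK1-SE+/+ samples and 0.56, 0.49 and 0.73 TPM in the DKK1-SE-/- samples. It stayed under 1 TPM in all samples, and each edited sample was higher (log2 fold change 2.15 ± 0.26, adjusted p = 0.000131). PLXNA3 was called higher as well (log2 fold change 0.57 ± 0.12, adjusted p = 0.00325). With the GC-content offset its value was 0.33, with the call kept. All 3 tested class A plexins were thus called higher in DKK1-SE-/- cells, here (background 19.8%) and in each of the 15 alternative fits. Their summed level, with the untested PLXNA4, was 36.3, 36.1 and 43.8 TPM in the DKK1-SE+/+ samples and 78.4, 72.1 and 63.2 TPM in the DKK1-SE-/- samples. The edited samples were all above the unedited ones.

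The class B plexins, receptors of class 4 semaphorins, did not share this. PLXNB2, the most abundant of them, was at 43.6, 45.5 and 53.1 TPM in the DKK1-SE+/+ samples and 56.6, 49.4 and 50.3 TPM in the DKK1-SE-/- samples, with overlapping groups (log2 fold change 0.26 ± 0.13, adjusted p = 0.131); it was called higher without DKK1-SE-/- replicate 3. PLXNB3 was called lower (log2 fold change -0.91 ± 0.18, adjusted p = 0.00225). PLXNB1 was called lower by a narrow margin (log2 fold change -0.43 ± 0.16, adjusted p = 0.0453), its TPM values overlapped, and the call was lost in 8 of the alternative fits. PLXNC1, the receptor of SEMA7A, was not past the test (log2 fold change -0.51 ± 0.41, adjusted p = 0.351).

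The neuropilins are co-receptors with short cytoplasmic tails that bind class 3 semaphorins and vascular endothelial growth factors. NRP1 was at 23.0, 28.1 and 24.1 TPM in the DKK1-SE+/+ samples and 17.8, 17.4 and 24.6 TPM in the DKK1-SE-/- samples. Edited replicates 1 and 2 were below all unedited samples and replicate 3 was among them (log2 fold change -0.35 ± 0.13, adjusted p = 0.0433). This call was lost in 8 of 15 alternative settings (adjusted p from 0.0029 to 0.194), the sign being negative in every one. NRP2 (ENSG00000118257, chr2:205681990-205798133, plus strand) was at 1.95, 2.12 and 2.02 TPM and 0.79, 0.72 and 0.8 TPM in the same order. The values within a genotype were nearly equal and the genotypes far apart (log2 fold change -1.36 ± 0.24, adjusted p = 0.00119). NRP1 was thus 12.3 times NRP2 in DKK1-SE+/+ cells and 25.9 times in DKK1-SE-/- cells, by mean TPM.

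ROBO1, the most abundant Robo, was at 36.7, 42.8 and 32.3 TPM in the DKK1-SE+/+ samples and 12.8, 13.2 and 18.4 TPM in the DKK1-SE-/- samples. All edited samples were well below all unedited ones (log2 fold change -0.87 ± 0.13, adjusted p = 0.000621). The log2 ratio of its mean TPM was -1.33, larger than the count-based value. In DKK1-SE+/+ cells ROBO1 was 1.89 times ROBO3 without overlap, and in DKK1-SE-/- cells the 2 overlapped. ROBO3 and ROBO4 were not past the test (log2 fold change -0.36 ± 0.18, adjusted p = 0.144, and log2 fold change 0.20 ± 0.34, adjusted p = 0.676), and ROBO2 was not tested. SLIT3 was called higher and ROBO1 lower in each of the 15 alternative fits. SLIT2 was called higher in each of them too, but it passed the filter through the DKK1-SE-/- samples alone and so had to differ.

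Eph receptors are the largest family of receptor tyrosine kinases. EPHA2, common on epithelial tumour cells, ranked next to SEMA4B by mean TPM in DKK1-SE+/+ cells and above it, as the most abundant member, in DKK1-SE-/- cells. Its level was 189.5, 198 and 217 TPM in the DKK1-SE+/+ samples and 288, 241 and 244 TPM in the DKK1-SE-/- samples. The edited samples were higher without overlap (log2 fold change 0.52 ± 0.12, adjusted p = 0.00621). The call was lost without DKK1-SE+/+ replicate 1 and with the GC-content offset combined with a term for the replicate number, with adjusted p from 0.000249 to 0.113 over the alternatives. Since EPHA2 made up nearly all of the EPHA sum, that sum followed it, from 206 ± 14.6 to 261 ± 24.4 TPM (mean ± SD, n = 3).

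EPHA5 (ENSG00000145242, chr4:65319563-65670495, minus strand) had 1, 0 and 2 counts after rounding in the DKK1-SE+/+ samples and 31, 37 and 42 in the DKK1-SE-/- samples. It was at 0.42, 0.41 and 0.63 TPM in the edited samples and at or under 0.02 TPM in the unedited ones. The ratio of summed counts, scaled to library size, was 39.8 (exact 95% interval 13.3 to 196, counting error only; edgeR adjusted p = 6.96e-05). EPHA4 (ENSG00000116106, chr2:221418027-221574202, minus strand) was at 0.2, 0.29 and 0.66 TPM in the DKK1-SE+/+ samples and 0.18, 1.94 and 0.36 TPM in the DKK1-SE-/- samples. In TPM the genotypes overlapped, and edited replicate 2 alone was high. In counts there were 13, 6 and 5 against 11, 24 and 21, and the adjusted p of 0.0357 (log2 fold change 1.33 ± 0.45) passed the limit in only 4 of 15 alternative settings, reaching 0.608. EPHA7 and EPHA10 were called lower (log2 fold change -1.08 ± 0.20, adjusted p = 0.00187, and log2 fold change -1.11 ± 0.31, adjusted p = 0.0158). With the GC-content offset the value of EPHA7 was -0.63, with the call kept. The EPHA10 call was lost without DKK1-SE-/- replicate 2 and by limma-trend on TPM with either pseudocount. For EPHA10 the log2 ratio of mean TPM was 0.02, of the opposite sign, so its direction depended on the scale.

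EPHB2 was the most abundant receptor of its group. It was at 62.7, 74.9 and 84.4 TPM in the DKK1-SE+/+ samples and 46.3, 39.3 and 40.2 TPM in the DKK1-SE-/- samples, and all edited samples were lower (log2 fold change -0.70 ± 0.12, adjusted p = 0.000933). EPHB4, the partner of ephrin B2, went the other way, from 12.2 to 16.9 TPM in the DKK1-SE+/+ samples to between 23.0 and 29.3 TPM in the DKK1-SE-/- samples (log2 fold change 0.97 ± 0.14, adjusted p = 0.000482). EPHB2 was therefore 5.20 times EPHB4 in DKK1-SE+/+ cells and 1.56 times in DKK1-SE-/- cells, by mean TPM. EPHB3 was not past the test (log2 fold change 0.21 ± 0.42, adjusted p = 0.721), and EPHB1 was not tested.

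EPHB6 (ENSG00000106123, chr7:142855061-142871094, plus strand), whose kinase domain is catalytically inactive, was at 7.99, 8.56 and 8.49 TPM in the DKK1-SE+/+ samples and 2.51, 0.81 and 1.14 TPM in the DKK1-SE-/- samples. The unedited samples were close together, and the edited ones were all lower, replicate 1 the least so (log2 fold change -2.57 ± 0.24, adjusted p = 2.68e-05). Its RefSeq window (GRCh38.p14; chr7:142862506-142862805, plus strand), shown against that of SLIT2, lies around a start 7695 bases inside the annotated gene and holds 3 CG dinucleotides, in capitals. As many or more were found in 81.8% of windows.
EPHB6: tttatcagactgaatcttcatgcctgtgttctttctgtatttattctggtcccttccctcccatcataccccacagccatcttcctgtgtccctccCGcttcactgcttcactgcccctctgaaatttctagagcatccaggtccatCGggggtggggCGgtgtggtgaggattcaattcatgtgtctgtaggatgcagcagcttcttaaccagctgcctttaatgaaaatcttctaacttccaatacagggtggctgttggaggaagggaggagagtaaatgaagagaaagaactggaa
The windows of SLIT2 and EPHB6 thus stood far apart in CG number, and a pair of genes gives no relation of that number to direction.

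UNC5C is a dependence receptor for netrin and had the most negative fold change of the tested members. The gene (ENSG00000182168, chr4:95162504-95549206, minus strand) was at 2.21, 2.39 and 2.35 TPM in the DKK1-SE+/+ samples and 0.14, 0.14 and 0.28 TPM in the DKK1-SE-/- samples. In counts these were 233, 184 and 234 against 18, 22 and 32, and no edited sample came near an unedited one (log2 fold change -3.06 ± 0.22, adjusted p = 3.71e-06). UNC5B, which also binds netrin 1, was at 0.42, 0.36 and 0.35 TPM and 0.7, 0.66 and 0.66 TPM in the same order. Each edited sample was higher, at a low level (log2 fold change 0.97 ± 0.23, adjusted p = 0.00683), and the call was lost by limma-trend on TPM with either pseudocount. The order of the pair was reversed: UNC5C was 6.15 times UNC5B in DKK1-SE+/+ cells, and UNC5B was 3.61 times UNC5C in DKK1-SE-/- cells. The UNC5C window (GRCh38.p14; chr4:95548924-95549223, minus strand) lies around a start 233 bases inside the annotated gene and holds 22 CG dinucleotides, in capitals, a number reached by 37.7% of windows.
UNC5C: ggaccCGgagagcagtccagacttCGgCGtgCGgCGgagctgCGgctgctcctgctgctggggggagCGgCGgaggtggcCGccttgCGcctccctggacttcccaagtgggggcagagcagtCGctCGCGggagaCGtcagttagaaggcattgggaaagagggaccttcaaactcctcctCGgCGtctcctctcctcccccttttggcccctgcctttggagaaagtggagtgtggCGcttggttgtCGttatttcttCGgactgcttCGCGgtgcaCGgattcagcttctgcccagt
SLIT2 and UNC5C, which moved in opposite directions, both held more CG dinucleotides than the median window, which had 14.

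**Figure D3:**
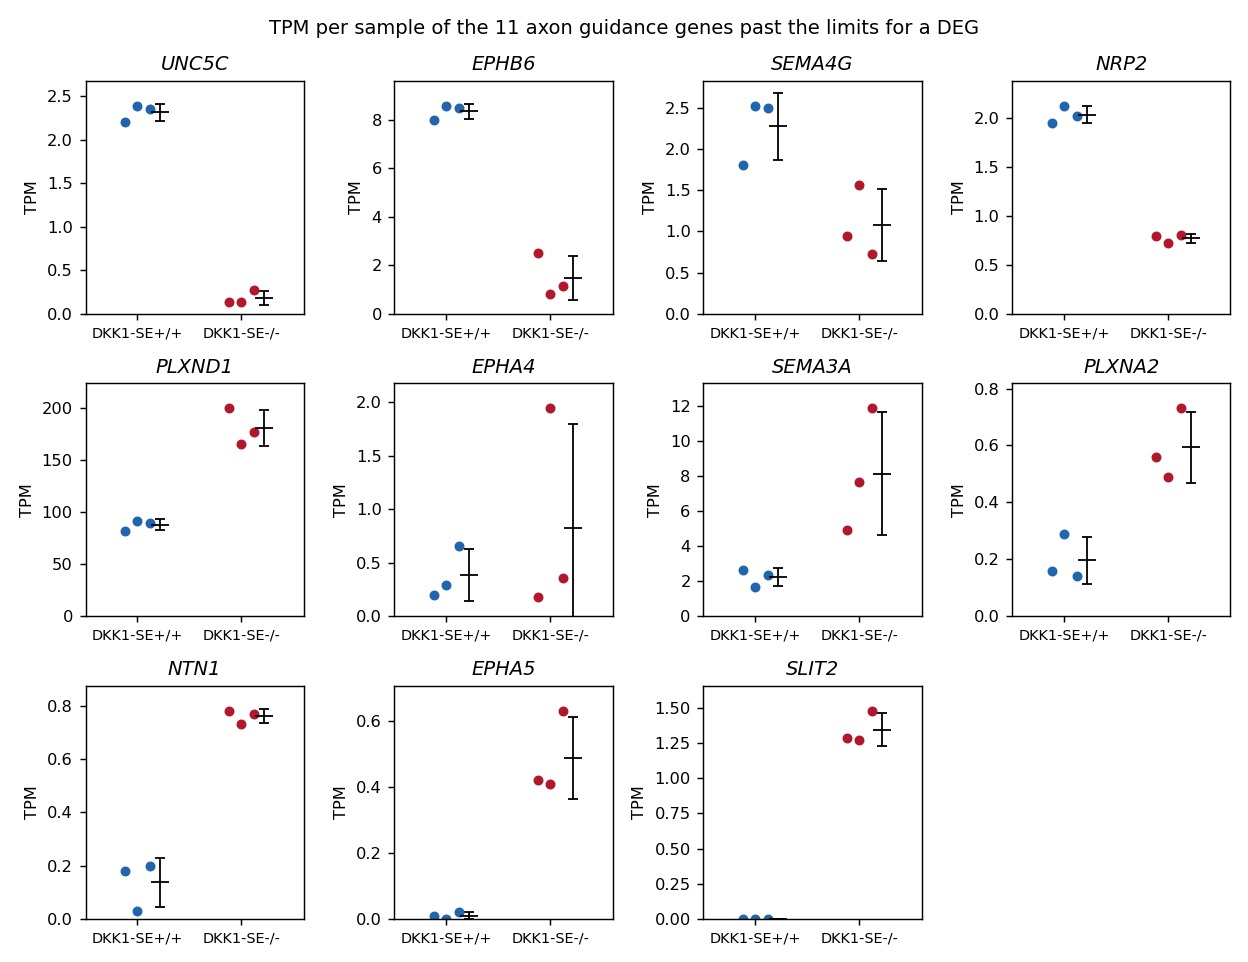
TPM in every sample (vertical axes, linear from 0) of the 11 axon guidance genes past the DEG limits; DKK1-SE+/+ in blue, DKK1-SE-/- in red, replicates 1 to 3 from left to right, black marks and bars the mean and SD over 3 samples. The genotypes are separate in every panel but that of EPHA4, where a single DKK1-SE-/- sample at 1.94 TPM carries the mean.

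The 18 genes that were not tested were all low, with mean levels over 6 samples of at most 0.398 TPM and no more than 17 counts in any sample. They were SEMA3D, SEMA4A, SEMA5A, SEMA5B, SEMA6D, PLXNA4, SLIT1, ROBO2, EPHA1, EPHA3, EPHA6, EPHA8, EPHB1, NTN3, NTN5, UNC5A, UNC5CL and UNC5D, the last with 0 counts in all samples. Of the 51 tested genes, 37 had a mean of at least 1 TPM, and among these 9 were called higher and 17 lower, beside 20.0% and 21.2% of all tested genes at that level. Of the 14 under 1 TPM, 6 were called higher and 0 lower by edgeR (5 and 0 by DESeq2, without EPHA4), beside 19.1% and 8.47% of all tested genes under 1 TPM. The 6 include SLIT2 and EPHA5, which had to differ, and EPHA4 and NTN1, which also needed their DKK1-SE-/- samples to pass the filter. In the same 14, at an unadjusted p under 0.05, there were 6 higher and 1 lower (SEMA3B). SEMA3B was called lower with the GC-content offset and by limma-trend on TPM.

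Position was not used to choose the genes. For each gene, the neighbourhood value was the median log2 fold change of the other tested genes starting within 5 Mb. Of the 51 members, 32 (62.7%) had the sign of their neighbourhood, and of the 32 called members 22 did (68.8%), beside 70.2% of all tested genes. The members' shares were thus no higher than that of all genes, and at 10 Mb the number was 31 of 51. Across the 51 members the fold change and the neighbourhood value had a Spearman's rho of 0.26, a description only, since members on 1 chromosome can share neighbours.

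Among the tested members, the 2 highest neighbourhood values belonged to PLXNA1 (0.79 over 74 genes) and PLXND1 (0.68 over 70 genes), which lie within 5 Mb of each other on chromosome 3, so that each counts among the neighbours of the other. Their own values of 1.10 and 1.21 exceeded those medians by 0.31 and 0.53. NRP1 and SEMA4F hardly differed from their surroundings, with neighbourhood values of -0.37 (28 genes) and -0.43 (71 genes) beside their own -0.35 and -0.38. NRP2 and SEMA4G moved the same way as their neighbours but further, the neighbourhood values being -0.52 (48 genes) and -0.44 (92 genes). For UNC5C the neighbourhood value was -0.33 (14 genes), a small part of its own -3.06. EPHB6 went against its surroundings, with -2.57 beside 0.41 (48 genes). PLXNA2, NTN1 and SEMA3A had neighbourhood values of 0.01, 0.15 and -0.14. The part of the surrounding region in the values of these genes was not tested. On chromosome 10, which carries DKK1, 4 members lay: SLIT1 was not tested, NRP1 and SEMA4G were called lower, and UNC5B was called higher.

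Base composition moved with the genotype over all genes. Across 15167 tested genes, the log2 fold change rose with the GC content of the transcripts (Spearman's rho 0.42; the points are genes of the same 6 libraries and are not independent), while across the 51 members rho was -0.02. The members were richer in GC, with a median of 59.0% beside 49.1%. By sample, the rho between GC content and the deviation from the mean of all samples was -0.44, -0.43 and -0.23 in DKK1-SE+/+ replicates 1 to 3 and 0.62, 0.40 and -0.15 in DKK1-SE-/- replicates 1 to 3. The third DKK1-SE-/- sample was thus unlike the other edited samples in this respect.

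With an offset for GC content in each library, 15 members were called higher and 21 lower (backgrounds in the same fit 19.8% and 20.9%), and 31 of the 32 calls were shared. SEMA3E lost its call (adjusted p = 0.0685), and ROBO3, SEMA3B, SEMA4C, SEMA6B and SEMA6C were gained, all lower. The median log2 fold change of the members moved from 0.04 to -0.083. Among the DEGs, the lower ones went from 4 to 7 with EPHA10, PLXNB3 and SEMA3B, and PLXND1 left the higher ones, at 0.91. SEMA3A, with 38.8% GC, moved up to 2.12, and EPHA2, with 61.4% GC, moved down to 0.21 and kept its call (adjusted p = 0.0356). Without DKK1-SE-/- replicate 3, too, the lower DEGs numbered 7, the added genes then being EPHA10, SEMA3C and SEMA3E.

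Counts and TPM did not always move together. The number of reads per TPM depends on depth and on the transcript length estimated in a sample. For 10 of 43 members with at least 10 counts in every sample it varied more than 2-fold after scaling for depth, beside 742 of 13349 genes. These were ROBO4, EPHA10, PLXNB3, PLXNA2, SEMA3G, SEMA4G, SEMA6C, PLXNB1, SEMA6A and SEMA3E. The sign of the log2 ratio of mean TPM was opposite to that of the count-based value for SEMA3G, SEMA6A, ROBO4 and EPHA10 among them and for EFNA5. TPM separated the genotypes without overlap for 29 of the 51 genes (background 44.2%) and counts scaled to library size for 35 (background 51.9%). Several members overlap other genes: SEMA4G shares its locus with MRPL43 on the opposite strand (69.4 and 54.7 TPM, by genotype mean), PLXNA3 with LAGE3, also on the opposite strand (48.8 and 47.5 TPM), and EFNA3 and EFNA4 overlap their readthrough gene. EPHB4 overlaps SLC12A9 (7.47 and 8.30 TPM), which was called higher like EPHB4 (log2 fold change 0.74, adjusted p = 0.00201). PLXNC1 overlaps CEP83 (12.1 and 5.69 TPM), which was called lower (log2 fold change -0.87, adjusted p = 0.00242). EPHA5 overlaps EPHA5-AS1 on the opposite strand, which was not tested and was at a mean of 0.09 TPM in DKK1-SE+/+ and 0.99 TPM in DKK1-SE-/- cells, higher than EPHA5 itself (0.01 and 0.49 TPM). Whether the counts used strand is not given in the sources used here, so reads of such pairs cannot be told apart with certainty.

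Other genes of these pathways were taken from lists of co-receptors and effectors. Of 107 such genes 94 were tested, and 54 were called (57.4%, beside the 39.3% of all genes), 30 higher and 24 lower. Without DKK1-SE+/+ replicate 2 there were 15 lower. There were 11 DEGs (11.7%, beside 8.66%), 9 higher and 2 lower (backgrounds 4.96% and 3.7%). Of the higher ones, DPYSL5 and RND2 passed the filter through the DKK1-SE-/- samples alone. RAC2, GRIP1 and FLRT3 had 15, 1 and 5, 5, 2 and 15, and 17, 3 and 13 counts in the DKK1-SE+/+ samples. These genes also needed their DKK1-SE-/- samples to pass the filter. So did ANKS1B (11, 27 and 23 counts), whose first DKK1-SE+/+ sample fell just under the limit scaled to library size.

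Among co-receptors, other ligands and partners of netrin and of the FLRT proteins, 7 were called higher and 4 lower of 13 tested (84.6%, beside the 39.3% of all genes). NEO1 encodes neogenin, a netrin and RGM receptor. It was at 0.86, 1.10 and 1.41 TPM in the DKK1-SE+/+ samples and 3.21, 3.09 and 7.33 TPM in the DKK1-SE-/- samples, all edited samples being higher and replicate 3 the highest (log2 fold change 2.57 ± 0.21, adjusted p = 7.85e-06). DCC, the classical netrin receptor, was at 0 in 5 of 6 samples. The FLRT proteins bind UNC5 receptors and moved apart: FLRT2 was at 17.7, 20.0 and 17.1 TPM and 4.65, 6.88 and 7.01 TPM in DKK1-SE+/+ and DKK1-SE-/- samples, and FLRT3 at 0.21, 0.05 and 0.21 TPM and 0.98, 0.74 and 1.04 TPM. FLRT2 was lower and FLRT3 higher in every edited sample (log2 fold change -1.28 ± 0.13, adjusted p = 3.71e-05, and log2 fold change 2.47 ± 0.41, adjusted p = 0.000878). FLRT1 was called higher too (log2 fold change 0.98 ± 0.32, adjusted p = 0.0326). Its call was lost with the replicate number as a block (adjusted p = 0.0633) and with the GC-content offset (adjusted p = 0.114). DRAXIN, a netrin antagonist, was called lower (log2 fold change -1.59 ± 0.33, adjusted p = 0.00343). TRIO, a guanine nucleotide exchange factor and the most abundant gene of this list, was at 139, 135 and 142 TPM and 88.5, 82.7 and 115 TPM, again without overlap (log2 fold change -0.40 ± 0.10, adjusted p = 0.00882).

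Of 15 tested Slit and Robo effectors, 4 were called higher and 7 lower (73.3%, beside 39.3%), and the fold change farthest from 0, that of ARHGAP39, stayed inside the DEG limit (log2 fold change 1.14 ± 0.18, adjusted p = 0.000826). CAP1, the most abundant, overlapped between genotypes (log2 fold change -0.08 ± 0.10, adjusted p = 0.541). Of 24 tested semaphorin effectors, 7 were called higher and 3 lower, a share of 41.7% and so near the 39.3% of all genes. RAP1B, the most abundant, was not past the test (log2 fold change -0.20 ± 0.12, adjusted p = 0.196). FYN, a Src-family kinase, was at 2.53, 4.38 and 4.28 TPM in the DKK1-SE+/+ samples and 10.2, 6.48 and 9.64 TPM in the DKK1-SE-/- samples, each edited sample being higher (log2 fold change 1.78 ± 0.21, adjusted p = 0.000105). RND2 had 3, 4 and 0 counts in the DKK1-SE+/+ samples and 16, 16 and 18 in the DKK1-SE-/- samples. DPYSL5 had 2 counts in all DKK1-SE+/+ samples together and 148 in the DKK1-SE-/- samples, a scaled ratio of 80.4 (exact 95% interval 21.9 to 670.1). Both RND2 and DPYSL5 passed the filter through the DKK1-SE-/- samples alone and so had to differ.

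Of 22 tested Eph and ephrin effectors, 7 were called higher and 6 lower (59.1%, beside 39.3%). SDCBP (syntenin), which binds ephrin B, was higher by the test with overlapping TPM (log2 fold change 0.56 ± 0.15, adjusted p = 0.0109). ADAM10, a protease that sheds ephrins, was above SDCBP in every DKK1-SE+/+ sample and below it in every DKK1-SE-/- sample. It was at 80.5, 75.2 and 67.9 TPM in the DKK1-SE+/+ samples and 32.7, 38.8 and 57.5 TPM in the DKK1-SE-/- samples, all edited samples being lower (log2 fold change -0.76 ± 0.18, adjusted p = 0.00768). With the GC-content offset the value was -0.39 for ADAM10 and 0.95 for SDCBP, with both calls kept. ARHGEF16 was at 4.55, 4.05 and 4.20 TPM and 13.0, 11.1 and 11.7 TPM, a clean separation (log2 fold change 1.61 ± 0.14, adjusted p = 1.42e-05). GRIP1 and ANKS1B passed the DEG limits with TPM values that overlapped between genotypes (log2 fold change 2.64 ± 0.51, adjusted p = 0.00221, and log2 fold change 1.61 ± 0.37, adjusted p = 0.00596). Of 20 shared cytoskeletal effectors, 5 were called higher and 4 lower, 45.0% and so near the 39.3% of all genes. CFL1 (cofilin), the most abundant with 1734, 1683 and 1767 TPM and 1819, 1853 and 1676 TPM by genotype, was not past the test (log2 fold change 0.18 ± 0.12, adjusted p = 0.249). RAC2, of low level, was the DEG of that list (log2 fold change 2.38 ± 0.52, adjusted p = 0.0046).

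Markers of other cell types moved with some of these results. Neuron genes summed to 35.9, 37.3 and 39.4 TPM in the DKK1-SE+/+ samples and 13.1, 12.6 and 19.9 TPM in the DKK1-SE-/- samples. Most of that was SYT1 (log2 fold change -1.38 ± 0.15, adjusted p = 7.8e-05), and the lower sum came from that gene. SNAP25 was higher in every edited sample in TPM but not past the test (log2 fold change 0.60 ± 0.25, adjusted p = 0.0809), and NEFL, not tested, had 0 counts in all DKK1-SE+/+ samples and 8.61, 10.0 and 10.9 in the DKK1-SE-/- samples, while STMN2 and ELAVL4 were at 0 in all 6 samples, and of 7 genes 3 were tested, 1 called higher and 1 lower (backgrounds 19.8% and 19.5%). The gene called higher, NEFM, had no counts in DKK1-SE+/+ cells and was at least 9.47-fold higher in DKK1-SE-/- cells; it passed the filter through the DKK1-SE-/- samples alone and so had to differ. S100B, a gene of Schwann cells, was at 0 throughout.

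Of 8 tested ductal and epithelial genes 4 were called higher and 2 lower (75.0%, beside the 39.3% of all genes), the list summing to 1909.9, 1964 and 2007 TPM and 3217, 3159 and 2728 TPM by genotype, with KRT8 the most abundant. Of 3 mesenchymal genes 2 were called lower (VIM and ZEB1, background 19.5%) and FN1 higher (background 19.8%). The log2 fold change of FN1 was 2.70 ± 0.24 (adjusted p = 1.87e-05), although its TPM values overlapped. The 3 genes summed to 3756, 4221 and 4534 TPM and 2823, 2539.8 and 2709 TPM, mostly VIM. Endothelial genes summed to 2.85, 2.73 and 2.46 TPM and 1.00, 1.13 and 0.87 TPM, and the lower sum came from KDR. KDR, a growth factor receptor that works with neuropilins, was the most abundant by mean and was called lower (log2 fold change -2.49 ± 0.19, adjusted p = 6.55e-06). TIE1, the other tested gene, had a positive value and was not past the test (log2 fold change 0.38 ± 0.52, mean 0.27 and 0.44 TPM by genotype). TEK, not tested, was at 0 in all DKK1-SE+/+ samples and at 0.03 to 0.04 TPM in the DKK1-SE-/- samples. PECAM1, CDH5 and VWF were at most 0.18 TPM in any sample. Fibroblast genes summed to 3.54, 3.09 and 2.64 TPM and 4.70, 4.41 and 4.68 TPM, with DCN at 0 in 5 of 6 samples. The higher sum came from COL3A1 (mean 1.58 and 3.77 TPM by genotype). LUM (0.32 and 0.03 TPM), ACTA2 (0.60 and 0.47), PDGFRB (0.32 and 0.28) and DCN (0.24 and 0) were lower by mean. PDGFRA was at 0.03 and 0.05 TPM. COL3A1, the most abundant and the 1 tested gene of 6, was called higher (log2 fold change 1.42 ± 0.14, adjusted p = 3.68e-05). Leukocyte genes summed to 2.03, 3.03 and 0.9 TPM and 2.14, 2.30 and 1.74 TPM, with ITGAM the most abundant by mean. Of 2 tested genes CD14 was called higher (log2 fold change 1.76 ± 0.40, adjusted p = 0.00539). CD14 had 12, 4 and 9 counts in the DKK1-SE+/+ samples and needed its DKK1-SE-/- samples to pass the filter. ITGAM had a negative value and was not past the test (log2 fold change -0.52 ± 0.38, mean 1.52 and 0.56 TPM by genotype). The 7 acinar and endocrine genes summed to at most 0.55 TPM in any sample, with CTRB1 the most abundant and CELA3A and INS at 0 throughout. What part the shifts in these marker genes, among them SYT1 and KDR, had in the guidance genes was not tested.

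The deleted enhancer is studied for its binding of AP-1, the dimers of JUN and FOS proteins, and the motif of AP-1 was searched as TGANTCA, which reads alike on both strands. RefSeq windows were at hand for 59 of the 69 members, 91 windows in all. TGANTCA was in 1 of them (1.10%), beside 7.71% of the 35116 windows of all genes, and in 0 of the 12 windows of 9 DEGs. The median number of CG dinucleotides was 21 in the windows of members, 26 in those of the DEGs and 14 in all windows. The match lay in PLXNC1, which was not past the test, at position 160 of a window on chr12:94262369-94262668, plus strand (GRCh38.p14), around a start 114042 bases inside the annotated gene, and is shown in capitals because it is the only one.
PLXNC1: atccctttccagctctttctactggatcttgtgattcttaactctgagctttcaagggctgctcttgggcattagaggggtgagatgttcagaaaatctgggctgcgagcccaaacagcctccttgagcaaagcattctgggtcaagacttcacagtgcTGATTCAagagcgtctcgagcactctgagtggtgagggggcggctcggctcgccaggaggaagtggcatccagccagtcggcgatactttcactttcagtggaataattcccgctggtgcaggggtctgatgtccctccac
A match describes these letters and not binding, and where they were absent nothing follows about the factor.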

How the data were processed

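RNA-seq of PANC-1 cells, 3 DKK1-SE+/+ and 3 DKK1-SE-/- samples, was used as deposited. For each gene and sample the authors deposited an expected count, an estimate of reads that need not be whole, and a TPM, scaled by transcript length to the same total in every sample. Per the labels the build was hg38 and the libraries came from a stranded mRNA kit; the aligner, the counting program, its strand setting and the annotation are not given in the sources used here. The authors' own group means, fold changes and p-values stood in the same table and were not used.

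Members and gene lists were chosen with earlier results of these data known. Expected counts were rounded, filtered with filterByExpr (minimum count 10) and tested in edgeR 4.0.16 (R 4.3.3) with TMM factors and no covariate, with Benjamini-Hochberg adjustment over 15179 genes. Standard errors were derived from F, as the fold change on the log2 scale over its square root. DEGs had an unadjusted p under 0.05 with a log2 fold change of 1.2 or more either way, which reads the limit of the study on the log2 scale. Genes described were, by rule, every DEG member, the most abundant member and the called member with the smallest p in each family, the most abundant gene and up to 5 DEGs in each pathway list, DKK1, and the markers (ductal and epithelial, mesenchymal, acinar and endocrine, neuron, endothelial, leukocyte and fibroblast genes, and S100B); other genes named were chosen after their values were seen. Results of certain markers are not reported here. Positions and GC content came from GENCODE 44, and promoter windows from RefSeq, GRCh38.p14.

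Alternatives were DESeq2 1.42.0, RLE factors, library size alone, no filter, the replicate number as a block, a GC-content offset in 40 bins with and without the block, leaving out each sample, limma-trend (limma 3.58.1) on log2 TPM after adding 1 or 0.1, other DEG limits, and a 10 Mb neighbourhood. The fits were also run on simulated data, and the outcome of that run is not reported here. The exact permutation test of DKK1 used scipy 1.17.1 in Python 3.11.15, and figures matplotlib 3.10.9. Intervals and floors cover counting error only.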

Additional observations from a re-analysis of the deposited data

How the results depend on the processing

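The 15 alternative fits called between 25 and 36 of the members at an adjusted p under 0.05, beside 32. Fold changes in every fit were recorded for DKK1 and part of the members only, and none of these changed sign past the test. With a sample left out, 13 to 17 were called higher and 12 to 16 lower. DEGs that were higher numbered 7, and 2 with limma-trend on log2(TPM + 1), 2 among genes with a mean of at least 1 TPM, 18 at a linear fold change of 1.2 (24.3% of all tested genes), and 6 to 7 with a sample left out. DEGs that were lower numbered 4, and 7 with the GC-content offset, 7 with that offset and the replicate block, 18 at a linear fold change of 1.2 (23.3% of all tested genes), and 4 to 7 with a sample left out (7 without DKK1-SE-/- replicate 3). Other pathway genes called lower ranged from 15 (without DKK1-SE+/+ replicate 2) to 29 with a sample left out, beside 24.

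The median log2 fold change of the members, 0.04, was 0.16 without the filter, -0.083 with the GC-content offset, -0.093 with the offset and the replicate block, -0.056 (without DKK1-SE-/- replicate 3) to 0.19 (without DKK1-SE-/- replicate 2) with a sample left out, -0.077 and -0.22 with limma-trend on log2(TPM + 1) and log2(TPM + 0.1), and -0.35 at a mean of at least 1 TPM. In the same fits the median of all tested genes was 0.09 without the filter and 0.01 with the GC-content offset, with or without the block. It was 0.01 without DKK1-SE-/- replicate 2 and without DKK1-SE-/- replicate 3. With limma-trend it was -0.083 on log2(TPM + 1) and -0.11 on log2(TPM + 0.1). For genes with a mean of at least 1 TPM the median of all tested genes is not given here. The cause was not tested.

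Replicate numbers did not pair the samples: the deviations of same-numbered samples correlated at -0.123, -0.0738 and -0.109, and no sample correlated best with its own number. With the replicate number as a block 27 members were called, 13 higher and 14 lower, all of them among the 32; EPHA4, NRP1, NTN4, PLXNB1 and SEMA4F were not. Low counts limit what can be said of the members under 1 TPM.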
